A study of Homo sapiens with 15 samples.

Results

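Gene expression after treatment with one small interfering RNA (siRNA) against ATRNL1, called siRNA-1 in the labels, was compared with expression after a second siRNA against the same gene, called siRNA-2. The comparison used every library of those groups, 3 with siRNA-1 and 3 with siRNA-2, which are 6 of the 15 libraries of the series, and no control library entered its test. All libraries came from H7, a human embryonic stem cell line in wide use and labelled as wild type, which had been differentiated in suspension spheroids to atrial cardiomyocytes with retinoic acid and dissociated on day 17. Besides the siRNA-1 and siRNA-2 groups, 3 libraries received a scramble control siRNA. Their levels are printed below only as a reference. A control lentivirus and a lentivirus carrying the short ATRNL1 isoform make up the rest of the series. All groups share one cell line and one differentiation protocol, and the labels do not say whether they came from one run of it or whether the 3 libraries of a group came from separate cultures. P-values here measure the spread between these libraries, which may be technical.

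ATRNL1 encodes attractin-like 1, a large single-pass membrane protein related to attractin, in a family with extracellular CUB, EGF-like and kelch-type domains. Attractin and its relatives are best known from coat colour, melanocortin signalling and the turnover of membrane receptors with E3 ubiquitin ligases such as mahogunin. An siRNA is a short RNA duplex of which one strand is loaded into an Argonaute protein and directs the cutting of matching mRNA. The same strand can also lower mRNAs that match only a short part of it, so that siRNAs of different sequence against one target can differ in their effects on other genes. With both reagents' sequences not given in the sources used here, no search for matching sites was made. Because the reagents also left different amounts of ATRNL1 mRNA, the sequence of the reagent and the depth of the lowering cannot be told apart in any difference below.

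The 6 libraries held between 37078568 and 67006175 counts. In a principal component analysis of the 7387 genes with a mean of at least 20 CPM (read counts scaled by library size), the first component held 76.8% of the variance and separated the reagents, with siRNA-1 libraries from -9.16 to -8.90 and siRNA-2 libraries from 8.45 to 9.53. The second component held 11.8% and spread the siRNA-1 libraries over 5.67, 0.591 and -6.15, in the order of the table's columns. Libraries 1, 2 and 3 of siRNA-1 were the middle one of their group in 25.9%, 51.7% and 22.4% of those genes, and those of siRNA-2 in 30.3%, 39.2% and 30.4%. Each pair of libraries within a group differed by more than counting noise, and all 3 were counted. A library mixed from the other 2 could differ from them in that way too. Whether library 2 of a group holds material of the other 2 was not tested and the labels do not say. If it did, each group would have 2 separate samples, a case for which the call count is given below. Mitochondrially encoded transcripts took 7.79%, 6.97% and 5.32% of counts in the siRNA-1 libraries and 5.26%, 5.31% and 4.26% in the siRNA-2 libraries. Cardiomyocyte genes were abundant in all 6 libraries: MYH6, the myosin heavy chain of atrial muscle, was measured at 7738, 8032 and 8133 CPM under siRNA-1 and 9097, 8591 and 7659 CPM under siRNA-2, and MYL7, the atrial regulatory light chain, at 2397, 2068 and 1785 CPM and 2303, 2359 and 2223 CPM. MYL2, the regulatory light chain of ventricle, was abundant as well, with values given below.

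Of 22397 genes tested, 4914 (21.9%) differed between the reagents at an adjusted p under 0.05 in the quasi-likelihood test of edgeR, adjusted by Benjamini-Hochberg, and a gene that passed is called higher or lower below. With siRNA-2, 2247 genes (10.0% of those tested) were higher and 2667 (11.9%) were lower. Most differences were small. The median absolute log2 fold change of the called genes was 0.30, 1822 of them changed by less than 0.25, and 254 changed by at least 1, of which 172 were higher and 82 lower with siRNA-2. The 3 libraries of one reagent did not overlap with the 3 of the other in 8097 genes (36.2%), and in 4746 of the called genes. The split between directions depended on scaling: TMM factors gave 54.3% of calls as lower, whereas library size alone gave 29.9% lower and moved the median of all genes from 0.01 to 0.08. With library 2 of each group left out, which was tried after the data were seen, 2056 genes were called, and with the spread estimated over all 15 libraries 2499 were. Among protein-coding genes, those in the lowest quartile of GC content were called lower in 23.6% of cases and those in the highest in 6.00%. The part of GC content in the results below was not tested.

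**Figure D1:**
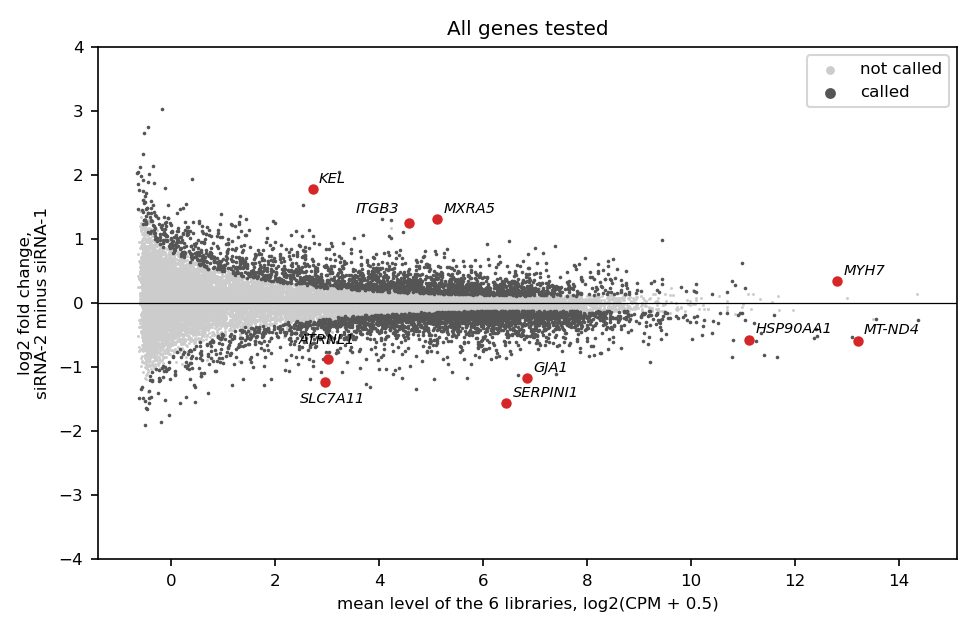
Log2 fold change of siRNA-2 over siRNA-1 (vertical axis, positive is higher with siRNA-2) against the mean level of the 6 libraries as log2(CPM + 0.5) (horizontal axis) for the 22397 genes tested, with 4914 called genes in dark grey, the others in light grey and 10 named genes in red. Most called genes lie within 1 of zero, SERPINI1 lies at -1.57 and KEL at 1.78.

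ATRNL1 itself was lower with siRNA-2 than with siRNA-1. The gene lies on chromosome 10 at 115093365 to 115948992 on the plus strand of GRCh38 and shares exonic bases with the noncoding gene AC016042.1, so that reads from the shared bases cannot be assigned without strand. Its level was 10.9, 9.56 and 8.79 CPM in the siRNA-1 libraries, 5.27, 5.76 and 4.9 CPM in the siRNA-2 libraries and 18.1, 14.7 and 16.3 CPM in the scramble libraries. The 3 groups did not overlap, with scramble highest and siRNA-2 lowest. Between the reagents the log2 fold change was -0.87 (SE 0.10, adjusted p = 2.05e-06, edgeR), that is 45.4% less mRNA with siRNA-2, and it stayed between -0.95 and -0.78 when each library was left out in turn. Counts per gene cannot separate the isoforms of ATRNL1.

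Of 9 genes of the attractin family and its partners, all measured, 3 were lower with siRNA-2, and the median log2 fold change was -0.04 against 0.01 for all genes. ATRN, the attractin gene, was measured at 127, 131 and 143 CPM under siRNA-1, 107, 104 and 103 CPM under siRNA-2 and 163, 168 and 167 CPM with scramble. Its siRNA-2 libraries were all below its siRNA-1 libraries, at a log2 fold change of -0.36 (SE 0.05, adjusted p = 1.07e-05, edgeR). MGRN1, which encodes the E3 ligase mahogunin, was measured at 75, 78.5 and 72.2 CPM, 56.6, 58.6 and 57.4 CPM and 76.6, 82.4 and 78.8 CPM in the same order, a log2 fold change of -0.39 (SE 0.04). Here the siRNA-1 libraries lay near the scramble range and the siRNA-2 libraries below both. MOSMO, a membrane partner of MGRN1, had 22.6, 21.5 and 22.9 CPM and 24.9, 25.5 and 23.8 CPM, and RNF157, a ligase related to mahogunin, 8.07, 9.15 and 8.94 CPM and 9.44, 8.51 and 7.33 CPM. Neither passed the test, nor did MC1R, MC4R and ASIP, the melanocortin receptors and agouti ligand, which stayed under 1 CPM in all 6 libraries.

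**Figure D2:**
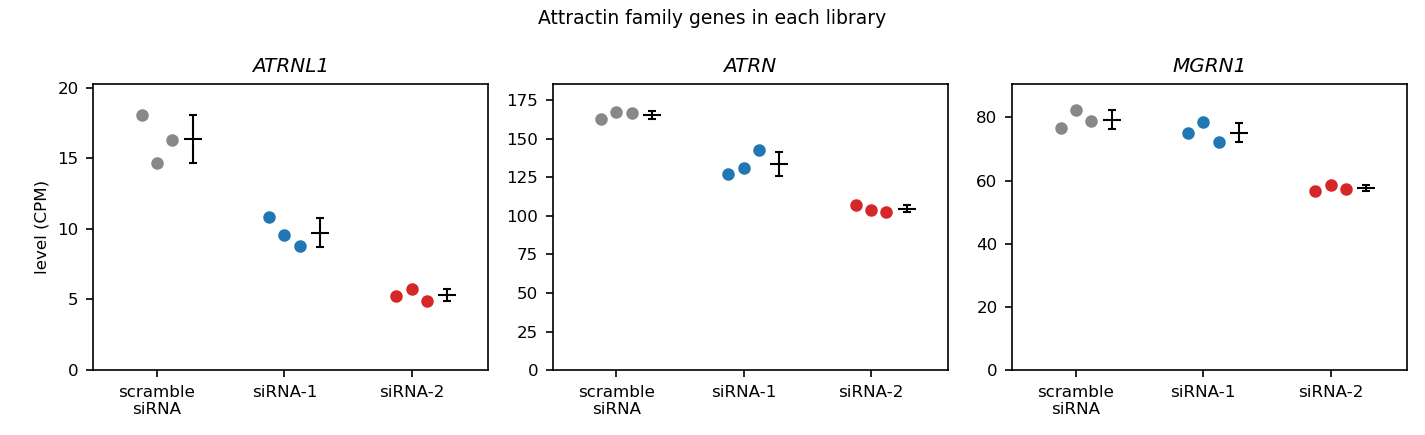
Level in CPM (vertical axis, from zero) of ATRNL1, ATRN and MGRN1 in each scramble, siRNA-1 and siRNA-2 library (points, 3 a group), with the mean and SD of each group beside them. In all 3 genes the siRNA-2 libraries are the lowest of the 3 groups.

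The largest differences among genes with a mean of at least 5 CPM were in genes with no known place in the attractin family. SERPINI1, which encodes neuroserpin, an inhibitor of tissue plasminogen activator, had the largest fall among them: 129, 129 and 129.6 CPM under siRNA-1 and 43.8, 40.9 and 46.2 CPM under siRNA-2, beside 136, 135 and 135 CPM with scramble. Scramble and siRNA-1 libraries were close together and the siRNA-2 libraries stood far below, at a log2 fold change of -1.57 (SE 0.05, adjusted p = 1.98e-13, edgeR). SERPINI1 starts at position 167735243 of chromosome 3 and PDCD10, transcribed away from it on the other strand, ends its span at 167734939. PDCD10, a component of cerebral cavernous malformation signalling, did not pass the test, with 45.1, 44.8 and 40.2 CPM against 47.3, 46.7 and 49 CPM. GJA1 encodes connexin 43, the main gap junction protein of working myocardium. Its level was 157, 155 and 166 CPM under siRNA-1, 70.7, 70.8 and 70.1 CPM under siRNA-2 and 158, 159 and 161 CPM with scramble, so that siRNA-2 alone stood apart, at a level 55.8% below that of siRNA-1 (change of -1.18 on the log2 scale, SE 0.04, adjusted p = 2.21e-12, edgeR).

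Among the other genes lower with siRNA-2, ISOC1, ADAMTS5, EPAS1 and FGF12 had siRNA-1 libraries above the scramble libraries instead. ISOC1, an isochorismatase domain gene, was at 139.7, 136 and 137 CPM under siRNA-1, 65.4, 62.7 and 62 CPM under siRNA-2 and 89.9, 73.6 and 80.8 CPM with scramble, a log2 fold change between the reagents of -1.12 (SE 0.04). ADAMTS5, a protease that cleaves aggrecan and versican, was at 15.7, 19.4 and 22.7 CPM, 8.15, 7.72 and 7.53 CPM and 10.1, 9.46 and 9.5 CPM in the same order (-1.31 on the log2 scale). In both genes the scramble libraries fell between the reagents. EPAS1, the hypoxia-inducible factor 2-alpha gene, followed that order with 25.5, 27.2 and 24.2 CPM, 10.4, 12.3 and 13.1 CPM and 18.7, 18.9 and 18.1 CPM (-1.11). FGF12, an intracellular fibroblast growth factor that modulates voltage-gated sodium channels, was at 30.5, 28.1 and 29 CPM under siRNA-1 and 12.7, 13.4 and 12.7 CPM under siRNA-2 (-1.18). The scramble libraries of FGF12 ranged widely, at 22.7, 12.9 and 17.8 CPM, and their lowest lay within the siRNA-2 range. TMEM47, a junction-associated membrane protein gene, was at 74, 64.6 and 71.9 CPM and 30.0, 30.3 and 33.4 CPM with the reagents (-1.18). CRHBP, the binding protein of corticotropin-releasing hormone, was at 40.6, 35.6 and 33.1 CPM and 14.6, 13.8 and 14.8 CPM (-1.34). COX6A1, a subunit of cytochrome c oxidase, was at 51, 45 and 39.4 CPM under siRNA-1 and 19.6, 20.7 and 19.1 CPM under siRNA-2 (-1.19), with scramble above both at 51.4, 61 and 53.5 CPM, and MSS51, a mitochondrial gene of muscle, was at 20.6, 19.2 and 14.8 CPM and 7.49, 7.66 and 7.49 CPM (-1.27). The long noncoding RNA LINC01844 completed the 12 largest falls at -1.19, together with SLC7A11, described below. The 12 were chosen among genes whose siRNA-1 and siRNA-2 libraries did not overlap, and each call was kept under every alternative that was run.

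Among the 12 largest rises with siRNA-2, KEL came first. It encodes the Kell blood group protein, a membrane metalloprotease that processes endothelins. KEL was at 2.52, 2.68 and 3.01 CPM under siRNA-1, 9.38, 10.0 and 8.88 CPM under siRNA-2 and 5.61, 4.04 and 4.84 CPM with scramble, so the scramble libraries lay between the reagents, and siRNA-2 gave 3.43 times the level of siRNA-1 (change of 1.78 on the log2 scale, SE 0.10, adjusted p = 5.56e-10, edgeR). ITGB3, the integrin beta-3 subunit that binds vitronectin and fibronectin, was at 14.6, 15.1 and 11.9 CPM, 34.3, 33.7 and 30.5 CPM and 16.4, 15.9 and 17.6 CPM in that order (1.25 on the log2 scale, SE 0.08). REC8, a cohesin subunit of meiosis, was at 7.92, 7.75 and 8.38 CPM, 16.4, 17.5 and 16.4 CPM and 8.19, 7.29 and 8.62 CPM (1.06). For both, siRNA-1 lay close to or within the scramble range and siRNA-2 above it. P2RX1, an ATP-gated cation channel, showed another order: 13, 13.9 and 13.8 CPM under siRNA-1, 28.3, 30.7 and 28.5 CPM under siRNA-2 and 24.4, 25.5 and 25.5 CPM with scramble (1.10), so that scramble lay between the reagents and nearer to siRNA-2.

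MXRA5, a secreted matrix-remodelling protein, lay above scramble with each reagent and was higher with siRNA-2 than with siRNA-1: 11.1, 4.3 and 8.44 CPM with scramble, 25, 19.1 and 14.4 CPM under siRNA-1 and 48.8, 48.3 and 48.3 CPM under siRNA-2 (1.31, SE 0.11). Its siRNA-1 libraries differed among themselves, whereas its siRNA-2 libraries were nearly equal. IL31RA, a receptor subunit of interleukin 31, was at 4.32, 2.68 and 1.16 CPM under siRNA-1 and 8.23, 7.43 and 7.79 CPM under siRNA-2 (1.53), and its value moved between 1.12 and 2.10 when libraries were left out in turn. SULT1E1, the estrogen sulfotransferase, was at 4.39, 3.64 and 2.72 CPM and 7.35, 8.28 and 8.05 CPM (1.14). In MXRA5, IL31RA and SULT1E1 the first siRNA-1 library was the highest of its group and the third the lowest. SLC44A5, a choline transporter-like protein gene, was at 11.3, 11.1 and 9.23 CPM and 27.4, 24.7 and 25.9 CPM (1.3), and GPR157, an orphan G protein-coupled receptor gene, at 9.63, 8.63 and 9.27 CPM and 21.3, 22.9 and 24.9 CPM (1.32). GALNT5, which starts O-linked glycosylation, TMEM179 and MTMR11, a myotubularin relative, had log2 fold changes of 1.05, 1.05 and 1.04. The calls of these 12 genes were kept under every alternative that was run.

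**Figure D3:**
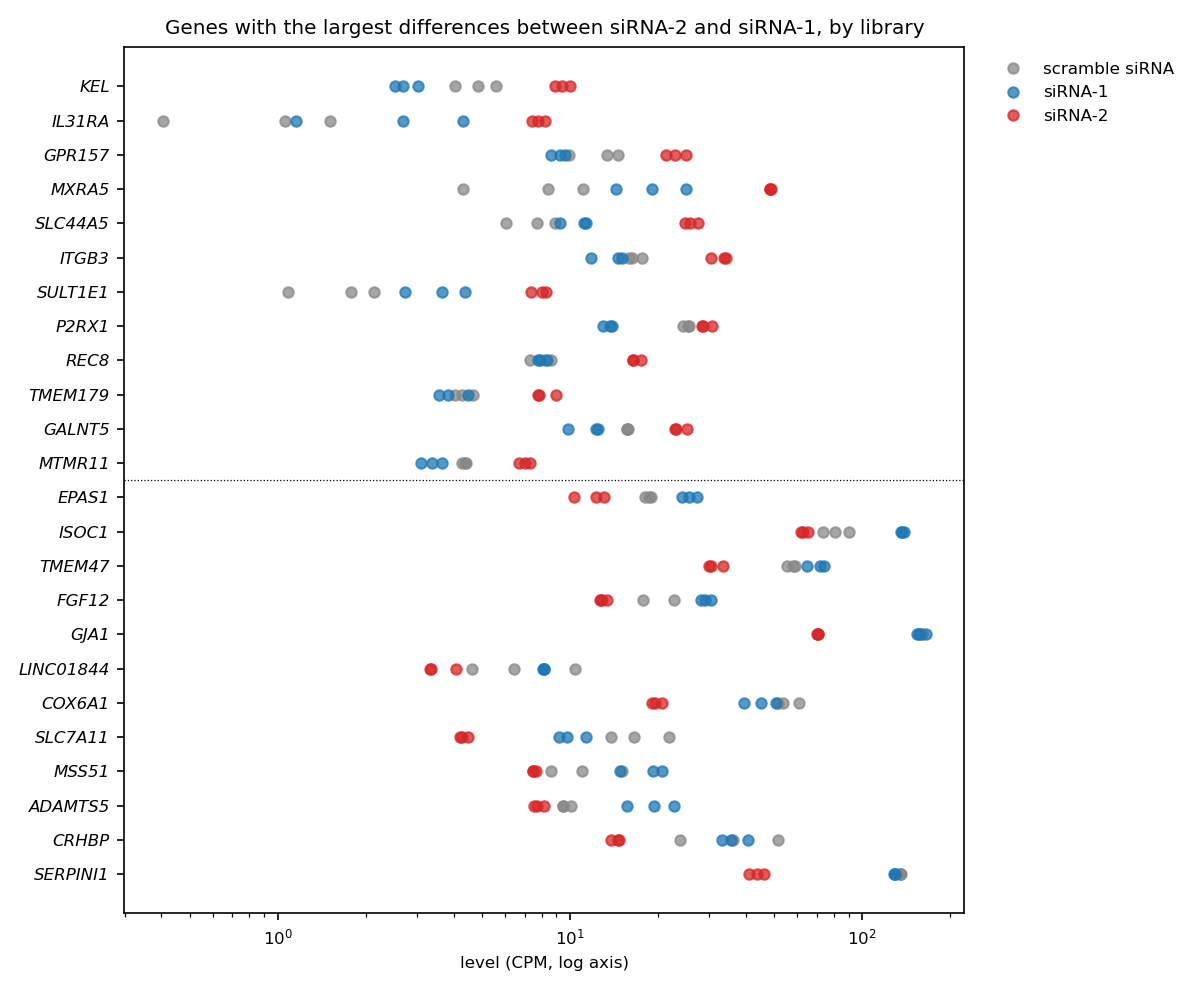
Level in CPM (horizontal log axis) of the 12 called genes with the largest rise (above the dotted line) and the 12 with the largest fall (below it) with siRNA-2, each point 1 library of scramble (grey), siRNA-1 (blue) or siRNA-2 (red). The genes were chosen among those whose red and blue points do not overlap, and the grey points lie with the blue ones in GJA1 and SERPINI1, between the colours in KEL and ISOC1 and near the red ones in P2RX1.

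Gene lists were then counted. They comprise 41 lists chosen for cardiomyocytes and siRNA treatment. Each count is read beside the shares of all genes tested that were called, 10.0% higher and 11.9% lower. The lists hold mostly well-expressed protein-coding genes, for which calls were more frequent: of 14790 protein-coding genes tested, 4448 (30.1%) were called, and in their quartile of highest mean CPM 13.8% were higher and 30.2% lower. In the quartile below it, from 19.3 to 58.7 CPM, 15.5% were higher and 20.2% lower. A count of lower members near the share of genes at a like level is no result about a list. Lists near 30.2% included atrial identity (30.4% lower), intercalated disc (30.0%) and oxidative stress (30.4%). Ventricular identity (38.9%), cardiac transcription factors (39.3%) and the integrated stress response (38.2%) exceeded 30.2% by less than the lists with the highest shares. By mean log2 level, however, atrial identity, oxidative stress and the integrated stress response lay in the range of the lower quartile. Their shares were above its 20.2%, and no comparison matched for level was made. The lists with the highest share of lower calls were mitochondrially encoded mRNAs, heat shock genes, cytosolic ribosomal proteins and mitosis genes, and those with the highest share of higher calls outside the marker lists were cholesterol synthesis and extracellular matrix genes.

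**Figure D4:**
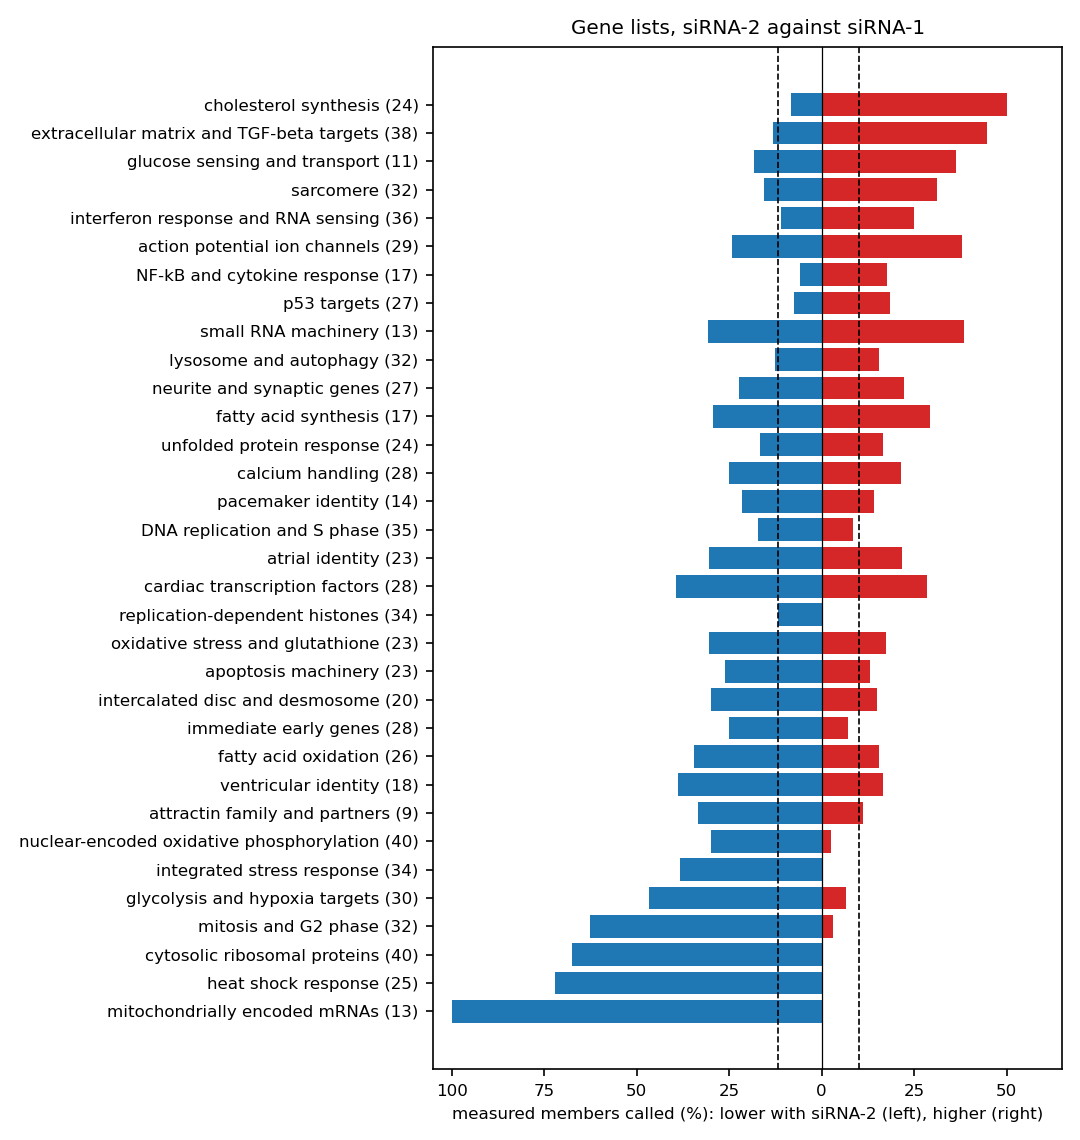
Share of the measured members of each gene list that were called lower (blue, to the left) or higher (red, to the right) with siRNA-2, in percent, with the number of measured members in brackets. Dashed lines mark the shares over all genes tested, 11.9% lower and 10.0% higher, and the bars of cholesterol synthesis (50.0% higher) and heat shock (72.0% lower) extend well past them. The shares in the quartile of protein-coding genes with the highest mean CPM, 30.2% lower and 13.8% higher, are not drawn.

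Of the 29 measured genes for action potential ion channels and transporters, 11 were higher and 7 lower with siRNA-2, with a median of 0.05. KCNQ1, the pore subunit of the slow delayed rectifier potassium current, was at 21.1, 22.4 and 20.2 CPM under siRNA-1, 33.6, 36.6 and 34.1 CPM under siRNA-2 and 38.9, 39.5 and 38.6 CPM with scramble (0.71, SE 0.06, adjusted p = 4.74e-08, edgeR). Its siRNA-1 libraries were the lowest group, and antisense transcripts share its exons. KCNJ2, the main inward rectifier channel, was lower with siRNA-2, at 11.4, 11.3 and 13 CPM against 7.84, 8.46 and 7.99 CPM (-0.57, SE 0.08), with scramble at 8.4, 8.71 and 8.28 CPM. TMEM38A, a sarcoplasmic reticulum cation channel, was at 36.6, 34.3 and 34.1 CPM and 44.7, 46.8 and 45.7 CPM (0.38). With library 2 of each group left out, 5 of the list's genes were higher.

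Among 14 pacemaker identity genes, 2 were higher and 3 lower. CACNA1G, a T-type calcium channel, was at 60.2, 61.8 and 63.8 CPM under siRNA-1 and 86.5, 91 and 80.9 CPM under siRNA-2 (0.47). CACNA1D, an L-type channel of nodal and atrial cells, was at 42.6, 45 and 47 CPM and 38.3, 36.6 and 35.6 CPM (-0.29). In both the reagents did not overlap with each other, whereas the scramble libraries overlapped both of them. In the fit of all 15 libraries 1 gene of the list was higher and 2 were lower.

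Intercalated disc genes had 3 higher and 6 lower members of 20. GJA1 was the lowest of them. CDH2, which encodes N-cadherin of the adherens junction, was at 867, 815 and 775 CPM under siRNA-1, 549.6, 550.4 and 566 CPM under siRNA-2 and 746, 664 and 692 CPM with scramble (-0.56, SE 0.05, adjusted p = 1.14e-07, edgeR). ANK2, ankyrin-B, was at 291, 295 and 299 CPM and 244, 229 and 232 CPM (-0.33). DSC2, a desmosomal cadherin, went the other way, from 22.9, 22.8 and 22.3 CPM under siRNA-1 to 31.5, 29.1 and 31.5 CPM under siRNA-2 (0.44), with scramble at 31.1, 30.2 and 29.8 CPM. Of the siRNA-2 libraries, 2 lay above the scramble libraries and 1 below them. Without library 1 of siRNA-1, 5 genes of this list were higher, and over the alternatives the higher members numbered between 1 and 8 and the lower ones between 3 and 6.

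Calcium handling genes were split, with 6 higher and 7 lower of 28 measured. CASQ2, cardiac calsequestrin, which stores calcium in the sarcoplasmic reticulum, was at 6.88, 5.01 and 4.73 CPM under siRNA-1, 10.3, 10.9 and 9.88 CPM under siRNA-2 and 3.3, 2.55 and 2.57 CPM with scramble (0.90, SE 0.11, adjusted p = 7.77e-06, edgeR). CASQ1, the calsequestrin of fast skeletal muscle, was at 54.9, 46.6 and 37.6 CPM, 91.5, 88.1 and 82.8 CPM and 48.7, 36.8 and 43.7 CPM (0.91, SE 0.09). Every siRNA-2 library of both genes was above every siRNA-1 and scramble library. CAMK2A, a calcium/calmodulin-dependent kinase subunit, was at 47.4, 50.3 and 50.4 CPM and 67, 68.7 and 66.1 CPM (0.44). PPP1R1A, protein phosphatase inhibitor 1, was lower with siRNA-2, at 89.4, 87.7 and 85.9 CPM against 68.7, 67.6 and 62.1 CPM (-0.41).

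Of 32 sarcomere genes, 10 were higher and 5 lower with siRNA-2, and this count rested on single libraries: the lower members numbered 14 without library 3 of siRNA-1, 3 without library 1 of siRNA-1, 1 without library 2 of siRNA-1, none without library 2 of siRNA-2 and 1 without library 3 of siRNA-2. MYH7, the slow myosin heavy chain of ventricle and slow muscle, was at 6773, 6355 and 5790.4 CPM under siRNA-1, 7989, 8151 and 7899.7 CPM under siRNA-2 and 4773, 4256 and 4544 CPM with scramble (0.34, SE 0.06, adjusted p = 0.000388, edgeR). All siRNA-2 libraries were above all siRNA-1 libraries, and both above scramble. TNNI3, cardiac troponin I, was at 101, 83.7 and 66.5 CPM and 111, 119.9 and 112 CPM (0.44), and LDB3, a Z-disc protein, at 1541, 1549 and 1545 CPM and 2014, 1982 and 1914 CPM (0.35). MYOM3, an M-band protein, was at 0.873, 0.822 and 0.869 CPM and 1.77, 2.04 and 1.85 CPM (1.13). MYL2, the ventricular light chain, was at 1945, 1649 and 1347 CPM and 2022, 1988 and 2029 CPM (0.29, adjusted p = 0.0218, edgeR), but the call was kept in only 1 of the 6 tests that left out a library. TTN, titin, and NEBL, nebulette, were lower (-0.26 and -0.18), each call kept in 3 of those 6 tests. MYH6 and MYL7 did not pass the test, and neither did the natriuretic peptide genes NPPA, at 53.8, 43 and 33.8 CPM against 40.7, 48 and 44.6 CPM, and NPPB, at 89.5, 64.9 and 42.7 CPM against 58, 75.7 and 85.8 CPM. With all 15 libraries in the fit 5 sarcomere genes were higher and none lower, and with library 2 of each group left out 2 were higher.

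Cardiac transcription factors had 8 higher and 11 lower members of 28. MEF2C, a MADS-box factor of muscle, was at 108, 107 and 111 CPM under siRNA-1, 74, 69 and 70.2 CPM under siRNA-2 and 109.3, 101 and 105 CPM with scramble (-0.62, SE 0.04, adjusted p = 6.08e-09, edgeR), so that siRNA-1 overlapped with scramble and siRNA-2 lay below both. TBX5, a T-box factor of atrium and left ventricle, was at 219.9, 221 and 216 CPM and 181, 182 and 166 CPM (-0.32). ISL1, a marker of second heart field and sinus node, was at 5.95, 6.14 and 6.35 CPM and 3.83, 3.47 and 3.9 CPM (-0.72). Without library 2 of siRNA-1 the list had 4 higher members, without library 2 of siRNA-2 it had 3, and in the fit of all 15 libraries it had 1 higher and 6 lower.

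The atrial identity list had 5 higher and 7 lower members of 23 measured, and the ventricular list 3 higher and 7 lower of 18. Besides TBX5 and CACNA1D, the atrial list included CYP26B1, which degrades retinoic acid, at 8.09, 6.88 and 6.51 CPM under siRNA-1 and 4.52, 4.51 and 4.6 CPM under siRNA-2 (-0.66), and PLCB1, a phospholipase, at 35.3, 32.4 and 31.9 CPM and 47.4, 43.5 and 46.2 CPM (0.46). The ventricular list's lower members included GJA1, KCNJ2, IRX3, an Iroquois factor of the conduction system, at 40.3, 38.2 and 37.2 CPM and 28, 28.3 and 25.2 CPM (-0.51), and its neighbour IRX5 (-0.44). Its 3 higher members were MYH7 (0.34), MYL2 (0.29) and IRX4, another Iroquois factor (0.17). The summed level of the ventricular list was 12777, 11914 and 10852 CPM under siRNA-1. Under siRNA-2 it was higher, at 13676, 13988 and 13785 CPM, with MYH7 as its largest part. By the calls of their members, neither list moved as a whole towards one reagent. In the fit of all 15 libraries 3 atrial genes were higher and 3 lower, and 1 ventricular gene was higher and 4 lower. Without library 1 of siRNA-1, 8 atrial genes were higher, and without library 2 of siRNA-2, 3 atrial genes and 1 ventricular gene were.

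Heat shock genes were lower with siRNA-2: 18 of 25 were called lower and none higher, with a median of -0.26. The list holds mostly chaperones and cochaperones that fold and refold proteins, some of them switched on by heat shock factor 1. It also holds the factor gene HSF2, which was not called, and constitutive members such as HSPA8. HSP90AA1, the inducible cytosolic chaperone HSP90-alpha, was at 2435, 2636 and 2877 CPM under siRNA-1, 1748, 1723 and 1888 CPM under siRNA-2 and 1865, 2920.1 and 2433 CPM with scramble (-0.57, SE 0.06, adjusted p = 1.24e-06, edgeR). HSPA1A and HSPA1B, the inducible HSP70 pair, share nearly identical sequence, so counts can be split between them. HSPA1A was at 69.4, 76 and 82.1 CPM, 47.6, 52.2 and 56.3 CPM and 47.4, 70.1 and 58.2 CPM in that order (-0.55), and HSPA1B at 139, 148 and 159 CPM, 92.9, 107 and 109.4 CPM and 84, 158 and 116 CPM (-0.53). DNAJA1, an HSP40 cochaperone, was at 288, 283 and 291 CPM, 214, 211 and 229 CPM and 231, 249 and 241 CPM (-0.40). In all 4 genes the siRNA-2 libraries lay below the siRNA-1 libraries, and in HSP90AA1, HSPA1A and HSPA1B the scramble libraries overlapped one or both reagents. The summed level of the list was 12426, 12396 and 12538 CPM in the siRNA-1 libraries and 10073, 10399.6 and 10834 CPM in the siRNA-2 libraries. The lower count was 12 in the fit of all 15 libraries, and between 16 and 19 when each library was left out in turn, with 1 member called higher without library 3 of siRNA-1.

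Heat shock factor binds inverted GAA repeats, and 3 promoters that hold such letters are shown because the heat shock genes were lower together. Each is the 250 bases before a gene start in RefSeq (GRCh38.p14), written 5′ to 3′ on the gene's strand, with the letters of GAANNTTC (a motif that reads the same on both strands) in capitals except its N positions. HSPA1A is at chr6:31815293-31815542 on the plus strand, HSPA8 at chr11:123062137-123062386 on the minus strand and DNAJA1 at chr9:33025023-33025272 on the plus strand.
HSPA1A: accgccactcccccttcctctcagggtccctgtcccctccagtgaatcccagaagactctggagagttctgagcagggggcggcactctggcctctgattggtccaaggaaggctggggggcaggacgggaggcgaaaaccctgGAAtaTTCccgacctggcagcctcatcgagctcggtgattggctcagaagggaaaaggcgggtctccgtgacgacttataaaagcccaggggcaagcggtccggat
HSPA8: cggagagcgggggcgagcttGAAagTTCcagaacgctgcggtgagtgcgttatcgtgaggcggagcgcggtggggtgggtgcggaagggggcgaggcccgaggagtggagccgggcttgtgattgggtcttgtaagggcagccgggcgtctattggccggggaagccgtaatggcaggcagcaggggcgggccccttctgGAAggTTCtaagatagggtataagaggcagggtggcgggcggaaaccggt
DNAJA1: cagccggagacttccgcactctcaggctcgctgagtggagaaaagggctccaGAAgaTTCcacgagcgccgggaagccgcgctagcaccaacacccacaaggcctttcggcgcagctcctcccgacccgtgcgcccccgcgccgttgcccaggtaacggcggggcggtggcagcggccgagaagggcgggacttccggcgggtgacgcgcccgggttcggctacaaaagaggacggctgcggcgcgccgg
The match starts 106 bases before the gene start in HSPA1A and 198 in DNAJA1, and HSPA8, the constitutive HSP70, has 2 matches, at 230 and 50 bases. HSPA8, named here after its values were seen, was at 1296, 1319 and 1413 CPM under siRNA-1 and 1056, 1026 and 1061 CPM under siRNA-2 (log2 fold change -0.36). GAANNTTC was found in a promoter of 12 of the 22 heat shock genes that matched the RefSeq table (54.5%), in 10 of the 16 called lower and 2 of the 6 not called, and in 7.05% of all 27305 genes of that table. The list was chosen as heat shock genes, so its higher share of matches says nothing about the reagents. CHORDC1, with 3 matches, was not called (-0.05), and a link between match and call was not tested. A match describes the sequence only, not binding.

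Genes of the integrated stress response, which is set off by phosphorylated eIF2-alpha and runs through ATF4, had 13 lower and no higher members of 34 measured, with a median of -0.13. SLC7A11, the cystine transporter, was at 9.19, 9.81 and 11.4 CPM under siRNA-1, 4.27, 4.49 and 4.22 CPM under siRNA-2 and 13.8, 21.8 and 16.6 CPM with scramble (-1.23, SE 0.09, adjusted p = 2.46e-08, edgeR). The 3 groups did not overlap, with siRNA-2 lowest. PSAT1, an enzyme of serine synthesis, was at 23.6, 25.3 and 26.7 CPM and 15.2, 16 and 18.3 CPM with the reagents (-0.61). GARS1 and SARS1, the glycyl- and seryl-tRNA synthetases, had log2 fold changes of -0.43 and -0.35. CHAC1, a glutathione-degrading target of ATF4, did not pass the test, with 1.35, 1.34 and 1.43 CPM against 1.00, 1.4 and 1.41 CPM beside 5.24, 5.83 and 5.16 CPM with scramble. In a fit of the 9 siRNA and scramble libraries 6 genes of the list were lower, 5 were higher under library size alone, and 2 were higher without library 1 of either group.

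The unfolded protein response list had 4 higher and 4 lower members of 24. CALR, a chaperone of the endoplasmic reticulum, was lower with siRNA-2, at 364, 382 and 399 CPM against 226, 220.4 and 223 CPM, beside 505, 881 and 707 CPM with scramble (-0.78, SE 0.04, adjusted p = 6.86e-10, edgeR). HSPA5, the master chaperone BiP, did not pass the test, with 555, 620.3 and 681 CPM under siRNA-1 and 582, 573 and 613 CPM under siRNA-2, while its scramble libraries ranged over 969.7, 2329 and 1689.8 CPM. DNAJB9 and DNAJC10, cochaperones of BiP, were lower (-0.29 and -0.23), and PDIA4, a disulfide isomerase, was higher (0.26). In the fit of all 15 libraries none of the list was higher and 1 was lower, and without library 2 of either group 2 were higher.

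Glycolysis enzymes and hypoxia targets had 14 lower and 2 higher members of 30, with a median of -0.17. ENO1, enolase 1, was at 2266, 2161 and 2020.3 CPM under siRNA-1, 1293, 1449 and 1589.9 CPM under siRNA-2 and 1989.6, 1987 and 2021 CPM with scramble (-0.58, SE 0.07, adjusted p = 3.38e-06, edgeR). LDHA, which turns pyruvate into lactate, was at 3306, 3016 and 2746 CPM and 2057, 2123 and 2364 CPM (-0.47), and GAPDH at 2755, 2660.3 and 2471 CPM and 1992, 2214 and 2130.5 CPM (-0.32). PDK1, the kinase that holds back pyruvate entry into the mitochondrion, was at 862, 852 and 852 CPM and 620.4, 605 and 623 CPM (-0.48), and PGAM1, phosphoglycerate mutase, at 79.7, 73.9 and 74.6 CPM and 59.2, 58.5 and 58.6 CPM (-0.38). In these 5 genes each siRNA-2 library was below each siRNA-1 library. ENO1, GAPDH, LDHA and PGAM1 have processed pseudogenes that can share reads. The summed level of the list was 18041, 17254 and 16344 CPM under siRNA-1 and 13442, 14239 and 14822 CPM under siRNA-2. Leaving out library 1 of siRNA-1 gave 4 higher members and leaving out library 3 of siRNA-2 gave none, and in the fit of all 15 libraries 9 genes were lower.

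All 13 mitochondrially encoded mRNAs were called lower with siRNA-2, with a median of -0.59, but the reagents did not overlap in only 5 of them. MT-ND4, a subunit of respiratory complex I, was at 13502, 11840.1 and 8640.0 CPM under siRNA-1, 8245, 8123 and 6291 CPM under siRNA-2 and 10784, 11319 and 10559 CPM with scramble (-0.59, SE 0.12, adjusted p = 0.00121, edgeR). MT-ND2, another complex I subunit, was at 5428, 4215 and 2745 CPM and 2466, 2509 and 1967 CPM (-0.84). Library 1 of siRNA-1 was the highest of its group and library 3 the lowest in both, and library 3 came near the siRNA-2 range. These transcripts share one polycistronic origin and are not 13 independent measurements. DESeq2's Wald test called 5 of them, and 6 were called with library 2 of each group left out.

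Nuclear-encoded subunits of oxidative phosphorylation had 12 lower and 1 higher member of 40, with a median of -0.04, a share of lower calls close to that of the most highly expressed quartile of protein-coding genes. ATP5F1B, the catalytic beta subunit of ATP synthase, was at 1427, 1369 and 1332 CPM under siRNA-1 and 942, 980.5 and 1016 CPM under siRNA-2 (-0.49, SE 0.05, adjusted p = 6.9e-07, edgeR). NDUFA4, a subunit of cytochrome oxidase, was higher, at 135, 125 and 116 CPM against 152, 158 and 156 CPM (0.31). ATP5PB and NDUFB5 were lower by -0.28 and -0.19 on the log2 scale. The lower count was 6 without library 1 of siRNA-1, 7 without library 2 of siRNA-1, 7 without library 1 of siRNA-2 and 6 without library 2 of siRNA-2, and under library size alone 3 genes were higher, 3 lower and the median was 0.03. Fatty acid oxidation genes had 4 higher and 9 lower members of 26 measured. ACADL, long-chain acyl-CoA dehydrogenase, was at 6.63, 5.92 and 5.58 CPM under siRNA-1, 10.7, 10.2 and 10.1 CPM under siRNA-2 and 4.56, 3.23 and 3.94 CPM with scramble (0.77), and HADHA, the trifunctional protein's alpha subunit, was at 374, 358 and 358 CPM and 292, 286 and 299 CPM (-0.32). CD36, a fatty acid transporter, was at 12.6, 12.4 and 11.4 CPM and 9.75, 7.87 and 8.45 CPM (-0.48). That list had 5 lower genes without library 2 of siRNA-2 and 4 under library size alone.

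Cytosolic ribosomal protein genes had 27 lower and no higher members of 40, with a median of -0.19 and single values from -0.40 to 0.06. RPS18, of the small subunit, was at 238, 230.3 and 242 CPM under siRNA-1, 186, 192 and 197 CPM under siRNA-2 and 238, 247 and 238 CPM with scramble (-0.31, SE 0.04, adjusted p = 2.62e-05, edgeR). RPL38, of the large subunit, was at 191, 175 and 153 CPM and 134, 139 and 129 CPM (-0.37), and RPL24 and RPL32 had log2 fold changes of -0.31 and -0.25. Ribosomal protein genes have many processed pseudogenes that can share reads. The lower count was 17 under library size alone, 12 in the fit of all 15 libraries and 10 with library 2 of each group left out.

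Genes of mitosis and G2 phase had 20 lower and 1 higher member of 32, with a median of -0.21. TOP2A, topoisomerase II-alpha, was at 158, 147 and 155 CPM under siRNA-1, 115, 113 and 116 CPM under siRNA-2 and 157, 94.3 and 130.4 CPM with scramble (-0.42, SE 0.04, adjusted p = 5.97e-07, edgeR). The scramble libraries reached into the levels of both reagents. CDK1, the mitotic cyclin-dependent kinase, was at 34.6, 31.2 and 31.7 CPM and 25.2, 23.9 and 27.4 CPM (-0.36), and TPX2 and CENPE, a spindle assembly factor and a kinetochore motor, had log2 fold changes of -0.28 and -0.32. In bulk RNA, fewer cells of a kind and less RNA per cell cannot be told apart, so these values do not say whether fewer cells were dividing. The lower count was 12 without library 2 of siRNA-2, 9 under library size alone, 5 in the fit of all 15 libraries and 6 with library 2 of each group left out. DNA replication genes had 3 higher and 6 lower members of 35. CCNE1, cyclin E1, was higher, at 11.7, 12.4 and 12.1 CPM against 17.8, 16.2 and 17.3 CPM (0.50), whereas MCM6 and RRM1, a helicase and a ribonucleotide reductase subunit, were lower (-0.18 and -0.21), both calls lost in the fit of all 15 libraries. The 4 called histone genes of 34 measured, H1-2, H2BC5, H4C3 and H1-4, were all lower, between -0.34 and -0.20, and 2 were called lower when library 2 of siRNA-1, library 2 of siRNA-2 or library 3 of siRNA-2 was left out.

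**Figure D5:**
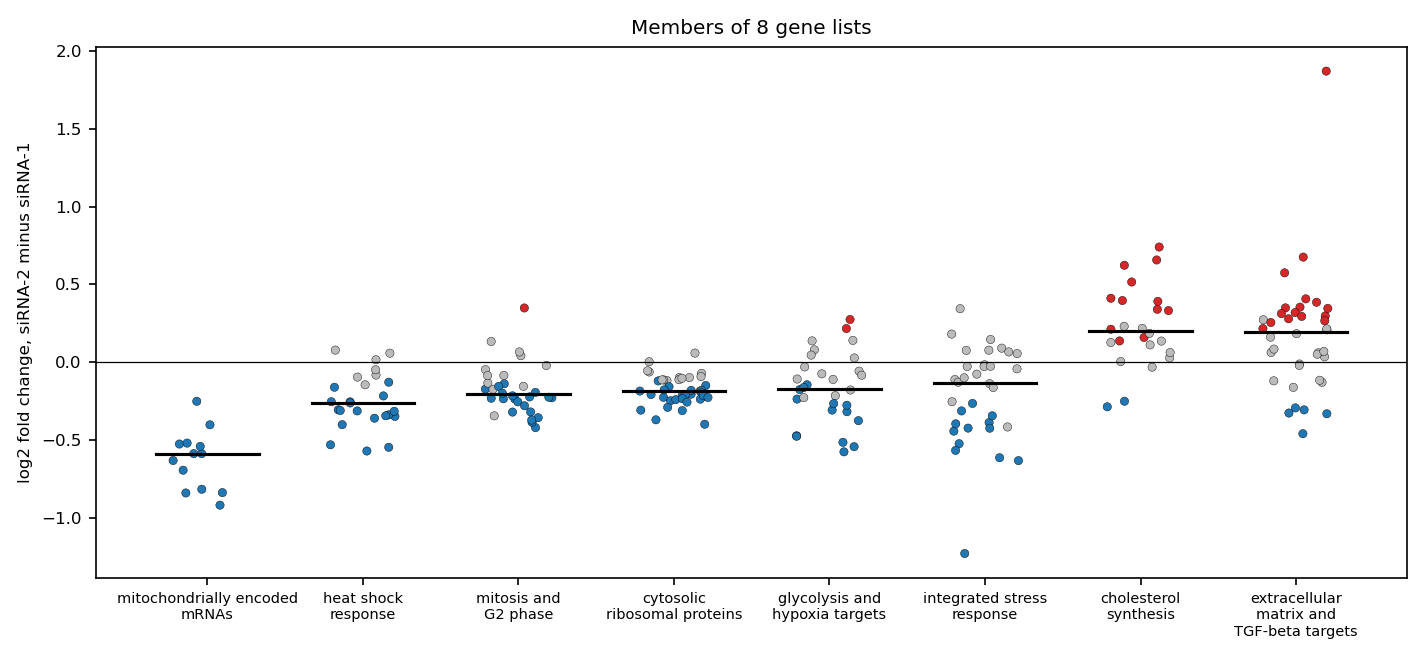
Log2 fold change of siRNA-2 over siRNA-1 (vertical axis) for each measured member of 8 gene lists (points: red called higher, blue called lower, grey not called; sideways position has no meaning), with the list median as a bar. The medians of heat shock, mitosis, ribosomal protein and mitochondrial genes lie at -0.26, -0.21, -0.19 and -0.59, and those of cholesterol synthesis and extracellular matrix genes at 0.20 and 0.20.

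Cholesterol synthesis and uptake genes were higher with siRNA-2 in 12 of 24 measured members and lower in 2, with a median of 0.20. The pathway is driven by SREBP2 and makes sterols from acetyl-CoA. SC5D, a sterol desaturase, was at 109.2, 102 and 98.2 CPM under siRNA-1, 161, 155 and 161 CPM under siRNA-2 and 106, 98.7 and 100.0 CPM with scramble (0.62, SE 0.05, adjusted p = 1.13e-08, edgeR), so that siRNA-2 stood above both other groups. IDI1, isopentenyl diphosphate isomerase, was at 47.3, 43 and 43 CPM and 62.2, 62.7 and 66.3 CPM with the reagents and 70.2, 72 and 73.7 CPM with scramble (0.52), and here siRNA-1 was the lowest group and siRNA-2 lay between it and scramble. The higher count was 17 under library size alone and between 10 and 13 when each library was left out in turn. Fatty acid synthesis genes were split, with 5 higher and 5 lower of 17 measured, FASN, fatty acid synthase, at 0.42 and SCD, stearoyl-CoA desaturase, at -0.22. Without library 2 of siRNA-1 the higher members of that list numbered 3, and without library 2 of either group the lower ones numbered 2. FASN lay below scramble with each reagent, at 75, 81 and 89.2 CPM under siRNA-1, 108.9, 117 and 102 CPM under siRNA-2 and 127, 159 and 138 CPM with scramble.

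Of 38 genes for extracellular matrix and targets of TGF-beta, 17 were higher and 5 lower with siRNA-2, with a median of 0.20. COL6A2, a chain of collagen VI, was at 33.2, 32.7 and 31.8 CPM under siRNA-1, 50.0, 53.2 and 53.1 CPM under siRNA-2 and 27.7, 19.9 and 24.8 CPM with scramble (0.68, SE 0.05, adjusted p = 1.01e-08, edgeR). TIMP3, a metalloprotease inhibitor bound to matrix, was at 281, 273 and 252 CPM and 409.5, 401 and 393 CPM (0.57), COL5A1 at 238, 228 and 214 CPM and 304, 306 and 293 CPM (0.41), and COL4A1, of basement membrane, at 357, 351 and 353 CPM and 464, 452 and 443 CPM (0.35). The scramble libraries of TIMP3, COL5A1 and COL4A1 ranged over 381, 273 and 332 CPM, 280.5, 179 and 234 CPM and 505, 366 and 441 CPM, a wider spread than that of either reagent. ELN, elastin, named after its values were seen, was the largest rise in the list, from 0.145, 0.110 and 0.116 CPM to 0.508, 0.546 and 0.319 CPM (1.87). Collagen I went the other way, COL1A1 at 54.5, 53.7 and 49.8 CPM against 43.5, 43.6 and 40.7 CPM (-0.31) and COL1A2 at -0.33. The higher count was 10 in the fit of all 15 libraries and 11 with library 2 of each group left out.

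Markers of other cell types were counted in the same way. Of 13 smooth muscle and pericyte markers, 7 were higher and 1 lower, with a median of 0.35, and their summed level was 774, 679.7 and 566 CPM under siRNA-1 and 778, 833 and 860.1 CPM under siRNA-2. DES, desmin, which cardiomyocytes also make, was at 59.6, 52.9 and 50.5 CPM and 76.9, 82 and 86.9 CPM (0.59), SMTN, smoothelin, at 12.1, 12.4 and 10.9 CPM and 15.5, 16.9 and 16.7 CPM (0.47), and RGS5, a pericyte marker, at 77.6, 72.4 and 72 CPM and 94.7, 93.8 and 101 CPM (0.38). ACTA2, smooth muscle actin, was lower with siRNA-2, at 195, 170.4 and 131 CPM against 108, 107 and 99.5 CPM (-0.66), its first siRNA-1 library being the highest. Fibroblast markers, 11 of 15 measured, had 2 higher and 4 lower members and a summed level of 304, 286 and 279 CPM under siRNA-1 and 288, 268 and 270.4 CPM under siRNA-2, which overlap. FBLN1, fibulin 1, was higher (0.85) and PDPN, podoplanin, lower (-0.29), and TCF21, a defining fibroblast factor, was among those too low to test. In the fit of all 15 libraries 1 fibroblast marker was higher and 1 lower. Skeletal muscle markers had 3 higher members of 7 measured, with ACTN3 at 30.4, 33.2 and 35.6 CPM and 48.2, 50.5 and 47.3 CPM (0.55), TNNT3 at 0.63 and TNNC2, under 1 CPM, at 1.27. MYOD1 and PAX7, which define that lineage, were too low to test. The summed level of these markers was 46.8, 50.9 and 50.3 CPM under siRNA-1 and 70.1, 72.5 and 69.2 CPM under siRNA-2.

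Endothelial markers were measurable for 5 of 15, with PECAM1 and CDH5 too low to test and no call, and pluripotency markers for 4 of 12, with POU5F1, NANOG and SOX2 too low to test and no call. Epicardial markers had a summed level of 346, 330.2 and 319 CPM under siRNA-1 and 358, 379 and 389 CPM under siRNA-2, most of it from KRT8. Of 11 measured, 2 were higher and 1 lower, and KRT8, a keratin, was at 186, 176 and 167 CPM and 217, 227 and 228 CPM (0.34), while BNC1 stayed under 1 CPM in all 6 libraries and UPK1B overlapped between the reagents and was kept in 2 of the 6 tests that left out a library. Endoderm markers had 1 higher member of 10, APOA1, at 1.54, 1.59 and 1.16 CPM and 2.34, 2.86 and 2.77 CPM (0.90), a count that was 3 without library 1 of siRNA-1 and 2 without library 3 of siRNA-1. Neural markers had 1 higher member of 5. The part of these marker differences in the matrix and sarcomere results was not tested.

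Because an siRNA engages the RNA silencing machinery and double-stranded RNA can raise interferon genes, both were counted. Of 13 genes of the small RNA machinery, 5 were higher and 4 lower, with a median of 0.01. AGO2, the Argonaute that cuts target RNA, was lower with siRNA-2, at 361, 356 and 343 CPM against 274, 281 and 285 CPM, beside 321, 336 and 333 CPM with scramble (-0.34, SE 0.04, adjusted p = 1.02e-05, edgeR). AGO4, an Argonaute without cutting activity, was higher, at 95.3, 96.2 and 90.5 CPM against 141, 137 and 137 CPM (0.55), as were the silencing scaffolds TNRC6A (0.35) and TNRC6C (0.48). The reagents did not overlap in these 4 genes. In the fit of all 15 libraries 3 genes of this list were higher and 1 was lower. Of 36 interferon and RNA sensing genes measured out of 43, 9 were higher and 4 lower, with a median of 0.13. MX1, an interferon-induced antiviral GTPase, was at 0.582, 0.712 and 0.715 CPM under siRNA-1, 1.28, 1.67 and 1.63 CPM under siRNA-2 and 0.535, 0.632 and 0.656 CPM with scramble (1.18). HLA-B and HLA-C, class I antigen presentation molecules that resemble each other closely, were higher by 0.51 and 0.46 on the log2 scale, and HERC5, an ISG15 ligase, was lower (-0.36). OAS1, OAS2, OASL and IFI44L were among the 7 interferon genes too low to test. With only genes of at least 5 CPM tested, 5 interferon genes were higher and 2 lower. NF-kB and cytokine genes had 3 higher and 1 lower member of 17 measured, CSF1, a macrophage growth factor, at 10.4, 12.4 and 13.6 CPM and 20.2, 22.4 and 20.4 CPM (0.79), CXCL12 at 0.51 and VCAM1 at -0.35. The call of TNFAIP3, the third higher member, was kept in 1 of the 6 tests that left out a library, and without library 1 of siRNA-2 the list had 6 higher members.

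Neurite and synaptic genes were divided, with 6 higher and 6 lower of 27 measured. GAP43, a growth cone protein, was at 9.88, 9.18 and 8.63 CPM under siRNA-1, 4.33, 3.97 and 4.84 CPM under siRNA-2 and 3.56, 2.49 and 2.9 CPM with scramble (-1.08, SE 0.10, adjusted p = 1.38e-07, edgeR). OPCML, a cell adhesion molecule of neurons, was at 7.9, 7.86 and 8.4 CPM, 4.43, 3.9 and 3.86 CPM and 2.65, 2.32 and 2.63 CPM (-0.99). In both, siRNA-1 was the highest group and siRNA-2 lay between it and scramble. CNTN1, contactin 1, went the other way, at 16.2, 14.3 and 13.8 CPM, 27.3, 25.5 and 26.3 CPM and 13.4, 9.32 and 11.4 CPM (0.83), and NCAM1, the neural cell adhesion molecule, was at 558, 556 and 529 CPM and 703, 704 and 686 CPM (0.35). With library 2 of each group left out, 2 genes of the list were higher. BANCR, a long noncoding RNA first described in melanoma cells, was at 12.2, 11.7 and 12 CPM under siRNA-1, 25.4, 23.5 and 23.6 CPM under siRNA-2 and 35.8, 32.2 and 33.6 CPM with scramble (1.01, SE 0.06), with no overlap among the 3 groups.

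For several genes the reagents could not be told apart by the test, and the interval of the difference is set by its standard error. PADI2, a peptidylarginine deiminase, was at 38.4, 42.8 and 40.1 CPM under siRNA-1 and 43.1, 42.6 and 41.1 CPM under siRNA-2, beside 13.9, 7.34 and 10.3 CPM with scramble, and its log2 fold change was 0.06 (SE 0.05). CNRIP1, a protein that binds cannabinoid receptor 1, was at 9.17, 11.2 and 10.4 CPM and 9.34, 8.78 and 8.35 CPM beside 3.54, 2.00 and 3.02 CPM (-0.21, SE 0.08), and NDST3, a heparan sulfate enzyme, at 2.97, 2.88 and 3.79 CPM and 3.22, 3.03 and 3.03 CPM beside 1.42, 0.492 and 0.884 CPM (-0.06, SE 0.13). In these 3 genes the reagents overlapped and every library of both was above every scramble library. KIT, a receptor tyrosine kinase, showed the same order, with 11, 8.77 and 7.8 CPM, 7.58, 8.2 and 9.16 CPM and 3.14, 2.18 and 3.45 CPM (-0.15, SE 0.11), and its ligand gene KITLG did not pass either (-0.14, SE 0.07). XIRP2, a cardiac actin-binding protein of the intercalated disc, was at 47.8, 33.6 and 17.3 CPM under siRNA-1 and 24.4, 22.4 and 23.6 CPM under siRNA-2, beside 9.56, 2.53 and 6.66 CPM with scramble. Its siRNA-1 libraries differed among themselves by more than the reagents did, and its log2 fold change was -0.49 (SE 0.20). ANKRD1, CCN1 and CCN2, stretch- and YAP-responsive genes, shared the order of their siRNA-1 libraries. ANKRD1 was at 1208, 812 and 411 CPM under siRNA-1 and 703, 721 and 772 CPM under siRNA-2. CCN1 was at 25.1, 19.9 and 13.1 CPM and 19.7, 20.3 and 20.5 CPM, and CCN2 at 20.1, 14.1 and 12.3 CPM and 12.1, 18.2 and 23 CPM. Under siRNA-2, CCN2 was more widely spread than CCN1 and ANKRD1. The first siRNA-1 library was the highest and the third the lowest within the siRNA-1 group in all 3 genes. TXNIP, a glucose-responsive arrestin, was higher with siRNA-2, at 8.61, 6.63 and 6.39 CPM against 10.1, 9.98 and 11.3 CPM (0.53), and its relative ARRDC4 did not pass (0.17, SE 0.09).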

How the data were processed

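RNA was sequenced from 15 libraries of H7-derived atrial cardiomyocytes. The authors deposited whole-number counts of reads per gene in 1 table, and the labels' protocol names ribosomal RNA depletion while another label says polyA RNA. The submitters' processing notes name STAR 2.7.9a, DESeq2 1.30.1 and GRCh38, without roles. With the counting tool, its strand setting and the treatment of reads with several matches not given in the sources used here, overlapping genes, antisense genes and near-identical copies remain uncertain. Of 59429 rows, 649 had a bare number for a name and were left out (0.00295% to 0.00437% of counts in the 6 libraries). The other 58780 gene IDs all matched GENCODE 29, and 58252 had a current symbol. Coordinates are those of GENCODE 29 (GRCh38).

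The main test was edgeR 4.0.16 (R 4.3.3, limma 3.58.1), a quasi-likelihood test with TMM factors and filterByExpr on the 3 siRNA-1 and 3 siRNA-2 libraries, with p-values adjusted by Benjamini-Hochberg over all 22397 genes and a threshold of 0.05. Log2 fold changes are siRNA-2 minus siRNA-1. The biological coefficient of variation was 5.36%. Levels are CPM with TMM factors computed over the 9 siRNA and scramble libraries. They are not scaled by gene length and are not compared between genes. Total counts ranged from 37078568 to 108663135 over the 15 libraries. Column names give each library's group but not which labelled sample it is, so library numbers follow the order of the columns. No column of per-sample values was left unmapped to a group.

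Gene lists were described by counts of called members and by medians, beside the same over all genes, with no set test. Named genes were the attractin list, the 12 largest called differences in each direction with a mean of at least 5 CPM and groups that did not overlap, the 6 most abundant called genes outside the mitochondrial genome, up to 4 called members with the smallest p in each list, and fixed genes of earlier interest, of which some are not reported here. The members and lists were chosen with earlier results of these data known, and no list is independent evidence. Alternatives were RLE size factors, library size alone, 2 other filters, DESeq2 1.42.0, limma-voom, fits of 9 and of 15 libraries, each library left out, and, added after the data were seen, library 2 of both groups left out and the mitochondrial genome left out of library sizes. The test was tried on simulated counts with known changes. Promoters are from RefSeq.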

Additional observations from a re-analysis of the deposited data

How the results depend on the processing

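The count of genes called ranged from 3538 to 4711 when each library was left out in turn, with 1580 to 2124 higher and 1958 to 2700 lower with siRNA-2. Estimating the spread over all 15 libraries gave 2499 genes, 1117 higher and 1382 lower, of which 2482 were also called in the same direction with 6 libraries. Leaving out library 2 of each group, chosen after seeing the data, gave 2056 genes, 871 higher and 1185 lower, of which 2035 were shared in that way. Library size alone gave 3575 higher and 1526 lower. The cause of these shifts was not tested. The fit without library 2 of each group also had fewer libraries. The other settings (RLE size factors, both filters on low counts, DESeq2, limma-voom, the 9 siRNA libraries and the mitochondrial genome left out of library sizes) stayed within 1.5 times of 4914, 2247 and 2667. Of the 190 genes named by rule, none that was called in the main test reversed direction under any setting. Changes of sign in named genes that were not called were not counted. The most calls lost were 28, with library 2 of each group left out. Counts for low genes limit the precision of their fold changes, and intervals cover the spread between libraries only. No paired analysis was possible because the column names give a group but not a labelled sample, so that the library numbers pair nothing.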

Other observations

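Of 28 immediate early genes, which growth factor signals switch on quickly, 7 were lower and 2 higher with siRNA-2, with a median of -0.03 against 0.01 for all genes. DUSP5, a phosphatase that inactivates ERK, was at 102, 92 and 87.8 CPM under siRNA-1, 53, 56.3 and 60.0 CPM under siRNA-2 and 102, 75 and 88 CPM with scramble (log2 fold change -0.74, SE 0.06). DUSP6, another ERK phosphatase, was at 7.48, 7.97 and 7.75 CPM, 5.00, 4.77 and 4.62 CPM and 6.91, 7.36 and 7.31 CPM in that order (-0.69), and the transcription factor gene EGR1 at 41.6, 41.1 and 38.2 CPM, 25.1, 28.7 and 27.1 CPM and 39.1, 35.3 and 38.3 CPM (-0.58). In all 3 genes siRNA-2 stood below both other groups. MYC and FOS, named after their values were seen, had log2 fold changes of -0.75 and -0.61, and JUNB, likewise, was higher (0.44). Without library 1 of siRNA-1 the list had 6 higher and 6 lower members, and without library 1 of siRNA-2 it had 5 higher. With library size alone as the scaling it had 7 higher and 6 lower.

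Of 23 genes measured for oxidative stress and glutathione, 4 were higher and 7 lower. GSS, glutathione synthetase, was at 37.6, 36.8 and 36.5 CPM under siRNA-1, 22.2, 23.5 and 20.6 CPM under siRNA-2 and 39.3, 32.7 and 34.7 CPM with scramble (-0.74), and GCLC, the catalytic subunit of the enzyme before it, at 50.4, 51.2 and 52.5 CPM, 37.8, 39.6 and 38.6 CPM and 47.9, 56.3 and 53.5 CPM (-0.41). With SLC7A11, which imports the cystine for glutathione, these 3 genes were lower together, although GCLM, the regulatory subunit that pairs with GCLC and was named after its values were seen, was higher (0.23). PRDX1, a peroxidase, was lower (-0.41). Without library 2 of siRNA-1 or library 3 of siRNA-2, 1 gene of the list was higher.

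Apoptosis genes had 3 higher and 6 lower members of 23. CYCS, cytochrome c, was at 451, 399 and 408 CPM under siRNA-1, 249, 251 and 266 CPM under siRNA-2 and 419, 435 and 438 CPM with scramble (-0.72). BCL2, which blocks cell death, was also lower (-0.32), as was BIRC2, an inhibitor of apoptosis protein (-0.22). The higher members numbered 1 without library 1 of siRNA-1 and none without library 2 of siRNA-1, library 2 of siRNA-2 or library 3 of siRNA-2. The p53 target list had 5 higher and 2 lower members of 27. CCNG1, cyclin G1, was at 310.2, 303 and 319 CPM under siRNA-1, 426, 433 and 492 CPM under siRNA-2 and 476, 478 and 472 CPM with scramble (0.53), ZMAT3 was higher (0.37) and RRM2B, a ribonucleotide reductase subunit, lower (-0.43). BTG2 was higher as well (0.36). The lower members were 1 when library 2 or 3 of siRNA-1 or library 1 or 2 of siRNA-2 was left out.

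Lysosome and autophagy genes had 5 higher and 4 lower members of 32. LAMP1, a glycoprotein of the lysosomal membrane, was at 103, 106 and 106 CPM under siRNA-1, 75, 75.8 and 71.5 CPM under siRNA-2 and 105, 120.0 and 113 CPM with scramble (-0.51), its relative LAMP2 was lower (-0.19), and so was the protease CTSL (-0.45), whereas CTSA was higher (0.24). The higher members numbered 3 without library 2 of either group and 11 under library size alone. Glucose sensing and transport genes had 4 higher and 2 lower of 11 measured, with SLC2A4, the insulin-regulated glucose transporter, at 107, 111 and 108.6 CPM under siRNA-1 and 129, 135 and 130.1 CPM under siRNA-2 (0.27) and HK1, hexokinase 1, at 635, 621 and 593 CPM and 534, 547 and 544 CPM (-0.19).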
